A study of Mus musculus with 20 samples.

Results

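Expression of 88 nuclear genes for mitochondrial respiration, the mitochondrial ribosome and mitochondrial protein import was examined in the kidney cortex of mice with 3 kinds of acute kidney injury. The genes were all rows of the 6025-gene deposited table whose symbol begins with Nduf, Cox4 to Cox19, Uqcr, Atp5, Sdha to Sdhd, Mrpl or Mrps with a digit, Timm or Tomm. Of the 88, 71 belong to the respiratory chain or ATP synthase, 15 to the mitochondrial ribosome and 2 to the import machinery. All mice were WT C57BL/6J animals aged 8 weeks. The Control group (n = 8) carries the treatment label mock, while the series text describes mock and vehicle animals together. The other groups were IRI, kidneys taken 24 h after ischemia-reperfusion (n = 4), Rhabdomyolysis, taken at 24 h (n = 4), and Cisplatin, taken at 72 h (n = 4). Doses, sex and the way each injury was induced are not given in the sources used here. Each library is described as a biological replicate. Libraries carry identifiers in 2 ranges. Control 1 to 4 share a range with IRI, Control 5 to 8 share the other with Rhabdomyolysis and Cisplatin, and the labels do not say which controls belong to which injury. The 4 that share its range were taken as an injury's matched controls, an inference from the identifiers alone, and counts with all 8 controls as 1 group are given where they differ most. Under this matching Rhabdomyolysis and Cisplatin share the same 4 control libraries.

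Respiratory complexes I to IV pass electrons from NADH and succinate to oxygen, complexes I, III and IV pump protons across the inner mitochondrial membrane, and ATP synthase uses the proton gradient to make ATP. Most subunits are encoded in the nucleus, made in the cytosol and imported through translocases of the outer (Tomm) and inner (Timm) membranes. A small set of core subunits is encoded by mitochondrial DNA and made on the mitochondrial ribosome, whose proteins (Mrpl, large subunit, and Mrps, small subunit) are themselves nuclear. Proximal tubule cells of the kidney cortex are rich in mitochondria and depend on oxidative metabolism for solute transport. The nuclear genes share regulators, among them the coactivator PGC-1alpha (Ppargc1a), the estrogen-related receptors (Esrra, Esrrb, Esrrg), NRF1 and the ETS-family factor GABP.

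The deposited values are CPM, read counts scaled to a common library size. They were whole multiples of the value of 1 read, which gave 3476635 to 5396140 reads per library in the table. The table holds only genes selected for change, since the largest fold against the mean of all controls over the 3 injuries was 1.53 or more for every gene, and adjusted p-values refer to that selection. By symbol, RefSeq lists 212 genes that fit the rule, and 86 of these names are in the table. The share in the table was 69 of 109 for respiratory genes, 15 of 78 for ribosome genes and 2 of 25 for import genes, with all 4 subunits of complex II and 0 of 9 outer membrane translocase genes. The rest of those genes, and the 13 protein genes of mitochondrial DNA, were not analysed here. A fold of 1.5 or more either way against the control mean was reached by 47, 86 and 67 of the 88 genes in the order IRI, Rhabdomyolysis, Cisplatin, against 67.5%, 92.5% and 85.3% of the table.

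Some libraries stood apart. Control 2 and Control 3 were the 2 highest of Control 1 to 4 for 80 of the 88 genes, an order found in 33.8% of all genes tested. Cisplatin 4 was the highest Cisplatin library for 84 of the 88 genes, and for 26.7% of all genes tested. Proximal tubule markers (17 of 18 listed genes in the table, among them Lrp2, Slc34a1 and Hnf4a) summed to 38571 to 64411 CPM in the controls, 11931 to 18810 in IRI, 10118 to 11957 in Rhabdomyolysis and 5441 to 9599 in Cisplatin. Relative to matched controls the marker sum was 28.1% in IRI, 20.4% in Rhabdomyolysis and 14.7% in Cisplatin. Markers of thick ascending limb and distal convoluted tubule (8 of 10 listed genes) stood at 22.5%, 23.4% and 18.1% of matched controls, and markers of collecting duct (5 of 10) at 50.3%, 42.4% and 52.8%. Myeloid markers (11 genes) stood at 150.2%, 234.4% and 267.6%, endothelial and podocyte markers (4 genes) at 147.8%, 251.7% and 162.4%, and markers of cycling cells (6 genes) at 184.8%, 199.8% and 162.1%. In whole cortex, fewer tubule cells and less RNA per tubule cell cannot be told apart. The part of these markers in the results below was not tested.

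Most of the 88 genes fell in each of the 3 injuries, and the median fall was largest in Rhabdomyolysis. In IRI, 73 genes were lower and 5 higher than in matched controls, in Rhabdomyolysis 85 were lower and 3 higher, and in Cisplatin 81 were lower and 4 higher (limma on log2(CPM + 1), adjusted p under 0.05 over all 5672 genes tested). All 88 genes passed the minimum mean for testing. Among all genes tested, 40.1% were lower and 40.6% higher in IRI, 46.5% lower and 48.8% higher in Rhabdomyolysis, and 44.0% lower and 47.8% higher in Cisplatin. The median difference of the 88 genes on the log2(CPM + 1) scale was -0.65 in IRI, -1.20 in Rhabdomyolysis and -0.67 in Cisplatin, beside medians over all genes tested of 0.077, 0.31 and 0.30. With a minimum mean of 5 CPM, which leaves out low genes, the medians over all genes were -0.060, -0.38 and -0.034 while those of the 88 genes stayed as they were. The gap in Rhabdomyolysis was then -0.82 in place of -1.51. In terms of CPM, the median gene stood at 62.4% of its matched control mean in IRI, 43.3% in Rhabdomyolysis and 62.6% in Cisplatin. All 4 injured libraries lay below all 4 matched controls for 68 (IRI), 85 (Rhabdomyolysis) and 69 (Cisplatin) of the 88 genes, where the shares over all genes tested were 35.4%, 44.4% and 41.4%. In Cisplatin, 12 of the lower genes overlapped the controls, and Cisplatin 4 stood above the other 3 libraries as described. After quantile normalization, the lower genes of the 88 numbered 48 for IRI, 82 for Rhabdomyolysis and 59 for Cisplatin. Counting every alternative, 50 of the 78 calls in IRI, 84 of 88 in Rhabdomyolysis and 61 of 85 in Cisplatin were kept throughout, and 4 in IRI and 5 in Cisplatin changed sign under quantile normalization.

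**Figure D1:**
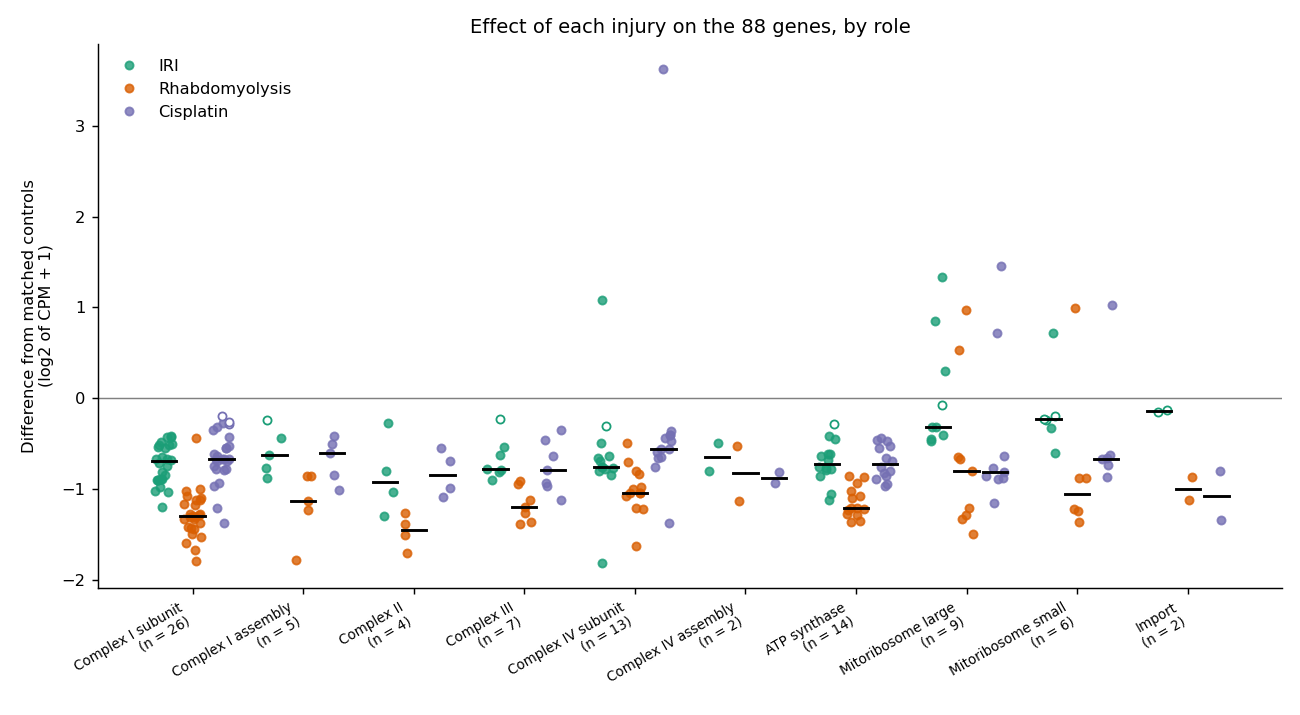
Difference from matched controls (log2 of CPM + 1, vertical axis) of each of the 88 genes, grouped by role along the horizontal axis and coloured by injury. Filled points passed adjusted p under 0.05 and open points did not, and black bars mark medians. Nearly all points lie below 0, the Rhabdomyolysis points lie lowest in most roles, and the points above 0 are Cox6b2 and 4 genes of the mitochondrial ribosome.

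By pattern over the 3 injuries, 70 genes were lower in all 3, 3 were higher in all 3, 10 were lower in Rhabdomyolysis and Cisplatin without a call in IRI, and 3 were lower in IRI and Rhabdomyolysis without a call in Cisplatin. The last 2, Cox6b2 and Mrpl12, passed the test in opposite directions in different injuries. Of all 5672 genes tested, 2091 were lower in all 3 injuries, 2004 were higher in all 3, 358 were lower in Rhabdomyolysis and Cisplatin without a call in IRI, and 131 were lower in IRI and Rhabdomyolysis without a call in Cisplatin. Rhabdomyolysis and Cisplatin share their controls. The 3 genes without a call in Cisplatin were called lower there when Cisplatin 4 was left out. The lowest of the 3 differences was that of Rhabdomyolysis for 79 of the 88 genes, that of IRI for 5 and that of Cisplatin for 4. Over all genes tested those shares were 40.4%, 38.0% and 21.6%. A fold of 1.5 or more against the control mean was reached by 86 of the 88 genes in Rhabdomyolysis and 47 in IRI. The ranking is therefore not independent of the selection of the table.

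Complex I takes electrons from NADH. Its 26 subunit genes were lower in IRI and in Rhabdomyolysis without exception, and 23 of 26 were lower in Cisplatin, with medians of -0.70, -1.30 and -0.67. After quantile normalization 19 subunits were lower in IRI and 19 in Cisplatin. The Rhabdomyolysis call of Ndufa1 was lost with quantile normalization and with 75th percentile scaling. The Cisplatin call of Ndufb8 was lost in 9 of 28 alternatives (75th percentile scaling, quantile normalization, edgeR, and without Control 5, 7 or 8 or Cisplatin 1, 2 or 3), with adjusted p from 0.00193 to 0.28. That of Ndufb9 was lost in 6 of 28 (75th percentile scaling, quantile normalization, and without Control 5 or Cisplatin 1, 2 or 3), with adjusted p from 0.0007 to 0.673. Ndufs1, an iron-sulfur subunit of the electron path, stood at 271, 321 and 387 CPM (lowest, median and highest of 8 controls). It measured 135, 154, 144 and 173 CPM in IRI 1 to 4, 101, 108, 103 and 109 in Rhabdomyolysis 1 to 4, and 127, 104, 117 and 126 in Cisplatin 1 to 4. No injured library reached the lowest control, and Ndufs1 fell by 1.204 (SE 0.11, adjusted p = 2.43e-09), 1.54 (adjusted p = 1.25e-11) and 1.37 (adjusted p = 1.36e-10) in IRI, Rhabdomyolysis and Cisplatin. It had the largest fall of any complex I subunit in IRI and in Cisplatin. In Rhabdomyolysis the largest fall was that of Ndufv3, an accessory subunit of the NADH-oxidizing module, at 1.80 (SE 0.15, adjusted p = 1.89e-10), from 171 to 233 CPM in controls to 50.5 to 58.7 CPM.

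The 3 complex I subunits without a call in Cisplatin were Ndufa11, Ndufs6 and Ndufb4. Without Cisplatin 4 all 88 genes were called, 84 lower and 4 higher, so these 3 missing calls rest on that library. Ndufb4, an accessory subunit of the membrane arm, measured 201, 236 and 261 CPM (lowest, median and highest control) and 189, 152, 183 and 274 CPM in Cisplatin 1 to 4. Cisplatin 4 exceeded every control while the other 3 lay below them all. The difference was -0.20 (SE 0.13, adjusted p = 0.142). In Rhabdomyolysis, where the 4 libraries lay between 76.3 and 87.0 CPM, Ndufb4 fell by 1.43 (adjusted p = 8.51e-10). Ndufab1, the mitochondrial acyl carrier protein, which is also a complex I subunit, measured 39.8 to 43.8 CPM in Rhabdomyolysis and 71.1 to 122 CPM in Cisplatin, against 101 to 150 CPM in controls.

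Complex I is built with dedicated assembly factors, 5 of which were in the table. All 5 were lower in Rhabdomyolysis and in Cisplatin and 4 of 5 in IRI, where Ndufaf6 differed by -0.24 (SE 0.15, adjusted p = 0.131). With 75th percentile scaling Ndufaf3 lost its calls in IRI and in Cisplatin. Its IRI call was also lost without Control 2, Control 3 or IRI 1, and its Cisplatin call without Cisplatin 1 or Cisplatin 2. Atp5sl, whose current name is Dmac2, is a factor for the distal membrane arm of complex I despite its older symbol. It had 65.2 to 81.4 CPM in controls, 37.5 to 45.8 in IRI, 17.8 to 24.0 in Rhabdomyolysis and 32.8 to 39.6 in Cisplatin. The injured groups all lay below the controls, and its fall of 1.78 (SE 0.11, adjusted p = 2.79e-12) in Rhabdomyolysis was close to that of Ndufv3. Ndufaf1 fell by 0.89, 0.86 and 0.85 in the 3 injuries (SE 0.15 each).

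Complex II, succinate dehydrogenase, joins the tricarboxylic acid cycle to the chain, and all 4 of its subunits were lower in each injury, with medians of -0.92, -1.45 and -0.84. Sdha, the succinate-oxidizing flavoprotein, measured 839, 935 and 1279 CPM (lowest, median and highest control). In IRI 1 to 4 it had 405, 436, 412 and 470 CPM, in Rhabdomyolysis 329, 338, 330 and 374 CPM, and in Cisplatin 481, 406, 443 and 483 CPM. All 12 injured libraries lay below the lowest control. The falls were 1.30 (SE 0.11, adjusted p = 1.61e-09), 1.39 (adjusted p = 1.34e-10) and 0.99 (adjusted p = 5.3e-08). Sdhb, the iron-sulfur subunit, fell by 1.04, 1.70 and 1.09 (SE 0.14 each). Sdhd, a membrane anchor, fell by 0.28 in IRI (SE 0.11, adjusted p = 0.0241) and by 1.26 in Rhabdomyolysis. The IRI call of Sdhd was lost with 75th percentile scaling, with the replicate block and without Control 2, Control 3, IRI 1 or IRI 2, and under quantile normalization Sdhd was higher in IRI, at 0.26 (adjusted p = 0.00593). Over 29 alternatives its adjusted p in IRI ran from 0.00593 to 0.27. The Cisplatin call of Sdhd was also lost under quantile normalization.

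Complex III passes electrons from ubiquinol to cytochrome c. All 7 subunits were lower in Rhabdomyolysis and Cisplatin and 6 of 7 in IRI, with medians of -0.78, -1.20 and -0.79. After quantile normalization 4 of 7 were lower in Cisplatin, and Uqcrh lost its call in IRI. With 75th percentile scaling Uqcrb lost its call in Cisplatin. Uqcrfs1, the Rieske iron-sulfur protein, ran from 438 to 613 CPM in controls, 269 to 336 in IRI, 174 to 206 in Rhabdomyolysis and 198 to 258 in Cisplatin, and no injured library overlapped the controls. Its falls were 0.80, 1.39 and 1.12 (SE 0.12 each). Uqcrq, a small subunit, had no call in IRI at -0.23 (SE 0.14, adjusted p = 0.145). Uqcrc2, a core protein, had the largest fall of the complex in IRI at 0.91 (SE 0.12).

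Complex IV, cytochrome c oxidase, reduces oxygen to water, and several of its subunits exist as tissue isoforms. Of 13 subunits, 11 were lower and 1 higher in IRI, 13 lower in Rhabdomyolysis, and 12 lower and 1 higher in Cisplatin. The medians were -0.76, -1.05 and -0.56. The broadly expressed isoforms Cox4i1, Cox6a1, Cox6b1, Cox7a2, Cox7b and Cox8a all fell in each injury, by 0.50 to 0.80 in IRI, 0.84 to 1.22 in Rhabdomyolysis and 0.36 to 0.65 in Cisplatin. After quantile normalization 4 of the 13 subunits were lower in IRI and 3 in Cisplatin. Of these 6 isoforms 5 then lost the call in IRI, 5 in Cisplatin and 1 in Rhabdomyolysis, and Cox6a1 in IRI and Cox6b1 and Cox8a in Cisplatin changed sign. With 75th percentile scaling Cox6b1 and Cox7a2 lost their call in Cisplatin, and Cox7a2 also did without Cisplatin 1 or Cisplatin 2. Cox7a1, the isoform known from heart and skeletal muscle, measured 7.25, 9.52 and 12.4 CPM (lowest, median and highest control). It had 3.15, 2.40, 1.95 and 1.37 CPM in IRI 1 to 4, 1.99, 1.97, 3.14 and 2.27 CPM in Rhabdomyolysis, and 1.87, 2.02, 2.79 and 6.39 CPM in Cisplatin, so that only Cisplatin 4 came near the controls. Its falls of 1.82 (SE 0.25, adjusted p = 1.13e-06) in IRI and 1.38 (adjusted p = 2.49e-05) in Cisplatin were the largest of all 88 genes in those injuries. Of the markers of skeletal and cardiac muscle, 0 of 10 were in the table. Because the table holds only genes selected for change, their absence does not show whether muscle RNA was present.

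The complex IV assembly factors Cox11, which delivers copper, and Cox15, which makes heme A, were lower in every injury. Cox11 had 26.2 to 32.8 CPM in controls, 18.8 to 21.2 in IRI, 17.7 to 21.9 in Rhabdomyolysis and 14.5 to 17.2 in Cisplatin, and was 1 of the 4 genes with their lowest difference in Cisplatin. Cox15 fell by 0.80, 1.13 and 0.94 (SE 0.10 each).

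ATP synthase contributed 13 subunit genes. All 13 were lower in Rhabdomyolysis and Cisplatin and 12 in IRI, with medians of -0.75, -1.21 and -0.75. After quantile normalization 6 were lower in IRI and 8 in Cisplatin. The exception in IRI was Atp5e, the epsilon subunit, at -0.29 (SE 0.20, adjusted p = 0.195). Atp5a1, the alpha subunit of the catalytic head, measured 2166, 2305 and 3204 CPM (lowest, median and highest control), 1078 to 1450 in IRI, 839 to 1008 in Rhabdomyolysis and 1101 to 1314 in Cisplatin. The injured libraries lay below all controls, and the falls were 1.12 (SE 0.13, adjusted p = 2.02e-07), 1.36 (adjusted p = 3.17e-09) and 0.97 (adjusted p = 9.08e-07). Atp5b, the catalytic beta subunit, fell by 1.05, 1.23 and 0.89. Atp5g1 and Atp5g3, which encode the same mature membrane-ring subunit, fell by 0.77 and 0.75 in IRI, 1.36 and 1.21 in Rhabdomyolysis, and 0.75 and 0.95 in Cisplatin. Because reads could be split between such near-identical genes, their separate values are uncertain. Under quantile normalization the Cisplatin calls of Atp5a1 (adjusted p = 0.451) and Atp5b (adjusted p = 0.842) and the IRI call of Atp5g3 (adjusted p = 0.449) were lost. Atp5s, a coupling factor, also fell in each injury, by 0.63, 0.86 and 0.44 (SE 0.17 each). Its Cisplatin call was lost with 75th percentile scaling (adjusted p = 0.0753) and without Control 5 (adjusted p = 0.0529).

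The mitochondrial ribosome genes divided. Of 15, 7 were lower and 4 higher in IRI, 12 lower and 3 higher in Rhabdomyolysis, and 12 lower and 3 higher in Cisplatin. The 7 in IRI became 4 with 75th percentile scaling, which lost Mrpl28, Mrpl49 and Mrps35, and 4 with quantile normalization, which lost Mrpl28, Mrpl50 and Mrps35. Mrps35 was also lost without Control 2, Control 3 or IRI 2, and Mrpl49 without Control 2. The median difference was -0.24 in IRI, -0.88 in Rhabdomyolysis and -0.74 in Cisplatin. Mrpl34, a large-subunit protein, measured 50.6, 61.2 and 79.0 CPM (lowest, median and highest control) and 60.2, 56.7, 66.2 and 56.9 CPM in IRI 1 to 4. All 4 IRI values lay inside the control range, and the difference was -0.08 (SE 0.15, adjusted p = 0.628). In Rhabdomyolysis it had 20.2 to 25.1 CPM and in Cisplatin 27.8 to 41.3 CPM, below every control, with falls of 1.33 (adjusted p = 1.79e-08) and 0.86 (adjusted p = 1.23e-05). Mrps36, also described as a component of the 2-oxoglutarate dehydrogenase complex, followed the same order, with -0.20 (SE 0.14, adjusted p = 0.184) in IRI and falls of 1.36 and 0.87 in the other injuries. Among genes that fell in IRI, Mrps21 changed most, by 0.61 (SE 0.13, adjusted p = 0.000298).

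The import machinery was represented by Timm9, a small chaperone of the intermembrane space, and Timm21, a subunit of the presequence translocase of the inner membrane. Neither passed the test in IRI, and both were lower in Rhabdomyolysis and Cisplatin. Timm9 measured 32.3, 38.4 and 43.1 CPM (lowest, median and highest control) and 38.9, 31.4, 37.5 and 32.9 CPM in IRI. It had 15.03, 19.7, 23.7 and 21.9 CPM in Rhabdomyolysis and 12.96, 12.5, 14.6 and 15.9 CPM in Cisplatin. IRI and control values were mixed, while both other groups lay below all controls. Timm9 fell by 0.87 in Rhabdomyolysis (SE 0.14, adjusted p = 2.9e-06) and by 1.35 in Cisplatin (adjusted p = 7.29e-09). Timm21 fell by 1.12 and 0.80 in these injuries. An annotated exon of Tomm20l on the opposite strand overlaps Timm9, and strand use in counting is not given in the sources used here, so their reads cannot be told apart.

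Respiratory genes were next set against ribosome and import genes within each library, as medians of the difference from matched controls. In IRI 1 to 4 the respiratory medians were -0.77, -0.74, -0.71 and -0.67 and the ribosome and import medians -0.25, -0.21, -0.19 and -0.23. Respiratory genes were the lower class in all 4 IRI libraries, by -0.50 ± 0.042 (SD, n = 4). In Rhabdomyolysis the respiratory medians were -1.18, -1.29, -1.27 and -1.11 and the others -1.14, -1.01, -0.85 and -0.96, a difference of -0.22 ± 0.17 (SD, n = 4). In Cisplatin the order turned in 3 of 4 libraries, with respiratory medians of -0.77, -0.80, -0.69 and -0.32, others of -0.74, -0.91, -0.85 and -0.53, and a difference of 0.11 ± 0.10 (SD, n = 4). The 8 control libraries showed differences between the classes of -0.034 to 0.079. These values are a description of chosen genes and carry no p. The table holds 69 of 109 respiratory, 15 of 78 ribosome and 2 of 25 import genes, selected for change in at least 1 injury. A gene with little change in IRI is present only through another injury, so these class differences cannot be separated from that selection. After quantile normalization the difference was -0.19 for IRI, 0.14 for Rhabdomyolysis and 0.44 for Cisplatin, so the sign in Rhabdomyolysis rests on the scaling while the order of the 3 injuries does not.

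**Figure D2:**
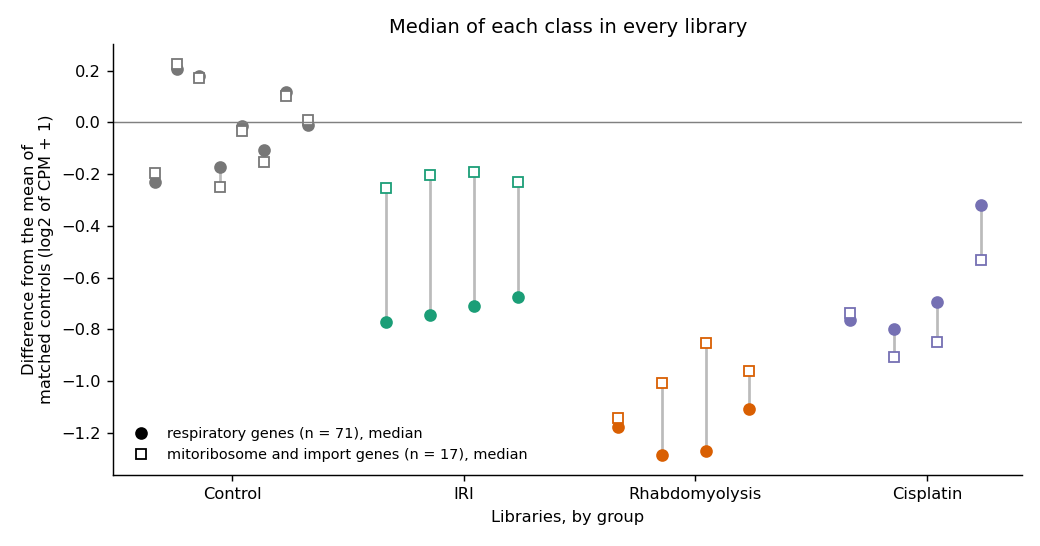
Median difference from the mean of matched controls (log2 of CPM + 1, vertical axis) in each of the 20 libraries, ordered by group, for the 71 respiratory genes (circles) and the 17 ribosome and import genes (open squares), with a line joining the values of a library. The classes part most in the 4 IRI libraries, lie together in the 8 controls, and Cisplatin 4 sits above the other 3 Cisplatin libraries in both.

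Against this general fall, 5 genes were higher in at least 1 injury. Cox6b2, known as the testis isoform of cytochrome c oxidase subunit VIb, moved most. It measured 1.88, 2.51 and 3.66 CPM (lowest, median and highest control), 3.93, 7.19, 8.50 and 7.55 CPM in IRI, 1.89, 0.887, 1.05 and 1.93 CPM in Rhabdomyolysis, and 33.6, 35.8, 43.3 and 53.6 CPM in Cisplatin. Behind these values stood 14 to 26 reads in each control library, 9 to 20 in Rhabdomyolysis and 288 to 553 in Cisplatin. All IRI and Cisplatin libraries lay above every control, while Rhabdomyolysis overlapped the controls of the other range and lay below its own 4. The Cisplatin mean was 1733% of matched controls, and the difference was 3.63 (SE 0.21, adjusted p = 1.12e-12). In IRI the difference was 1.08 (adjusted p = 0.00011). In Rhabdomyolysis Cox6b2 fell by 0.50 (adjusted p = 0.0303), a call lost with 75th percentile scaling (adjusted p = 0.121) and when Control 5, Control 6, Rhabdomyolysis 2 or Rhabdomyolysis 3 was left out, with adjusted p from 0.00229 to 0.121 over 28 alternatives. Its paralog Cox6b1 fell in all 3 injuries, by 0.64, 0.98 and 0.36.

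Mrpl33, Mrpl52 and Mrps18b, proteins of the mitochondrial ribosome, were higher in all 3 injuries. Mrpl33 measured 20.9, 27.6 and 32.6 CPM (lowest, median and highest control), 70.2 to 76.5 CPM in IRI, 51.0 to 58.1 in Rhabdomyolysis and 61.2 to 99.6 in Cisplatin. No injured library overlapped the controls, and the rises were 1.34 (SE 0.14, adjusted p = 1.67e-08), 0.97 (adjusted p = 6.6e-07) and 1.45 (adjusted p = 2.26e-09). Mrps18b stood at 41.6, 48.1 and 69.8 CPM (lowest, median and highest control), and at 81.7 to 97.5, 90.4 to 106 and 85.6 to 110 CPM in IRI, Rhabdomyolysis and Cisplatin. All 12 injured libraries exceeded every control, with rises of 0.72, 0.99 and 1.02 (SE 0.15 each). Mrpl52 rose by 0.85, 0.53 and 0.72 (SE 0.15 each), from 17.2 to 26.3 CPM in controls to 26.99 to 44.1 CPM over the 12 injured libraries. Annotated exons of Gm43809 on the same strand overlap Mrpl33 and those of Gm16279 on the opposite strand overlap Mrps18b, and the reads of such pairs cannot be told apart here.

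Mrpl12, which sits at the factor-binding stalk of the large subunit, was the other gene with opposite calls. It measured 145, 199 and 221 CPM (lowest, median and highest control), 201, 217, 218 and 217 CPM in IRI, 69.2, 71.3, 73.7 and 74.5 CPM in Rhabdomyolysis and 86.4, 80.4, 89.8 and 116 CPM in Cisplatin. Rhabdomyolysis and Cisplatin lay below every control, and IRI lay inside the range of the 8 controls. The difference was -1.50 in Rhabdomyolysis (SE 0.12, adjusted p = 1.18e-10) and -1.15 in Cisplatin (adjusted p = 1.51e-08). The rise in IRI was 0.30 (adjusted p = 0.0284). It was lost with DESeq2 (adjusted p = 0.152), against all 8 controls (adjusted p = 0.149) and when Control 1, Control 4, IRI 2, IRI 3 or IRI 4 was left out, with adjusted p from 8.68e-06 to 0.152 over 29 alternatives. Annotated exons of Gm16755 on the opposite strand overlap Mrpl12, and the reads of this pair cannot be told apart here.

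**Figure D3:**
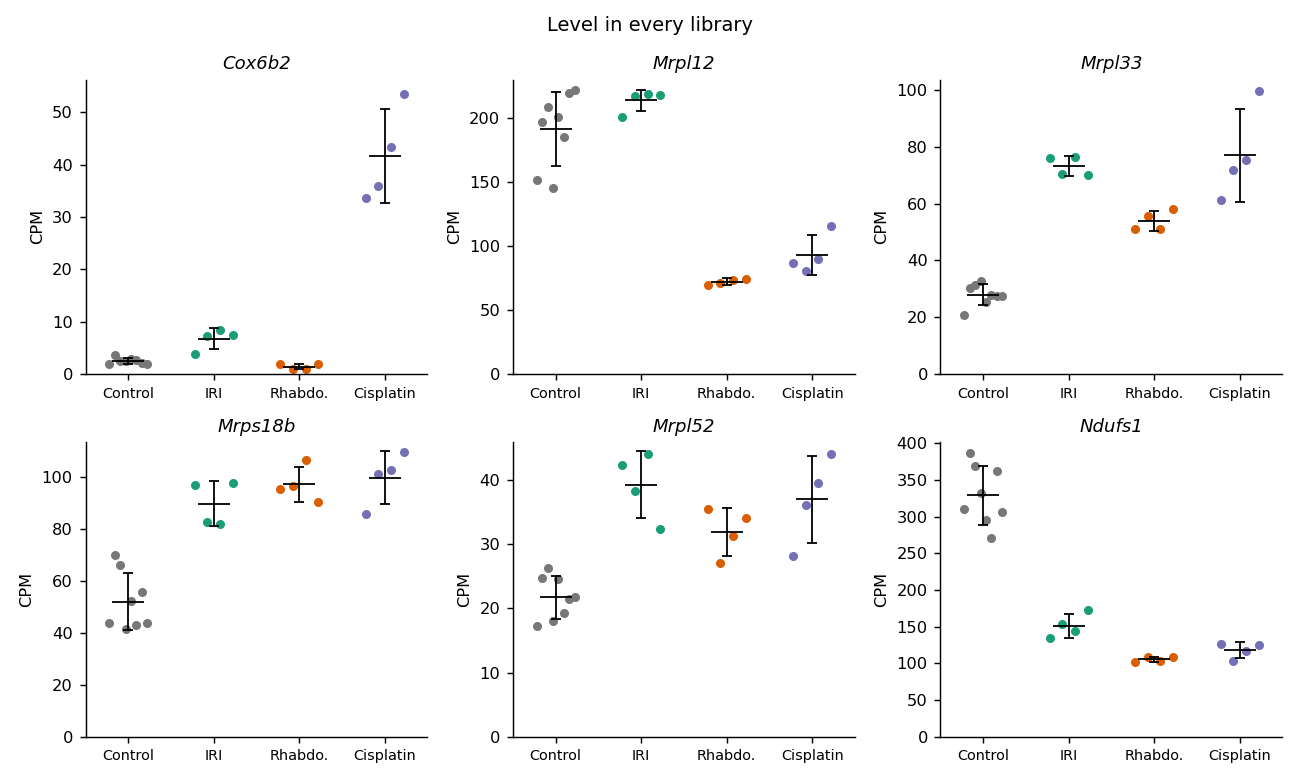
CPM in every library (vertical axes, starting at 0) of Cox6b2, Mrpl12, Mrpl33, Mrps18b, Mrpl52 and, as a gene that fell, Ndufs1, by group along the horizontal axis. Points are libraries and the black bar and whiskers are the mean and SD. Cox6b2 reaches 33.6 to 53.6 CPM in Cisplatin alone, Mrpl12 separates IRI from the other injuries, and Mrpl33, Mrps18b and Mrpl52 lie above the controls in every injury.

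The injuries differed in size for many of these genes. Rhabdomyolysis libraries were lower than Cisplatin libraries for 66 of the 88 genes and higher for 2, against 32.7% and 21.4% of all genes tested, with a median of -0.48 beside -0.086 over all genes. The 2 higher genes were Timm9 at 0.48 (SE 0.14, adjusted p = 0.00495) and Cox11 at 0.29 (SE 0.11, adjusted p = 0.0302). The Cox11 call was lost with the replicate block (adjusted p = 0.0556) and without Rhabdomyolysis 1, Rhabdomyolysis 2, Cisplatin 3 or Cisplatin 4, with adjusted p from 0.00147 to 0.0963 over 29 alternatives. Among the lower genes Cox6b2 differed by -4.13 (SE 0.21, adjusted p = 9.08e-13), Ndufb4 by -1.23 (adjusted p = 6.63e-08) and Ndufab1 by -1.04 (adjusted p = 3.09e-06). By role, 23 of 26 complex I subunits, 4 of 4 complex II subunits, 6 of 7 complex III subunits, 11 of 13 ATP synthase subunits and 8 of 15 ribosome genes were lower in Rhabdomyolysis. This tally leaves out complex IV, the assembly factors, the coupling factor and the import genes. DESeq2 gave 48 lower and 3 higher, and kept 50 of the 68 calls. It left 3 of 7 complex III subunits, 7 of 13 ATP synthase subunits and 4 of 15 ribosome genes lower. Without Cisplatin 4 the 2 directions together held 55 genes, with 3 complex III subunits and 5 ribosome genes lower. The 2 injuries were sampled at different times, 24 h and 72 h, so injury and time cannot be told apart.

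IRI was compared with the other injuries as the difference between effects, each taken against its own controls, because IRI libraries lie in another identifier range. The IRI effect was higher than the Rhabdomyolysis effect for 51 of the 88 genes and lower for 0, against 28.6% and 23.4% of all genes tested. Higher here covers smaller falls and, for Cox6b2 and Mrpl12, a rise against a fall. Selection of the table, with 86 of the 88 genes at 1.5-fold or more in Rhabdomyolysis and 47 in IRI, bears on this count. edgeR gave 47 higher and 0 lower. DESeq2 gave 33 higher and 1 lower, and 1 gene was also lower by limma with 75th percentile scaling, with quantile normalization, and without Control 1, Rhabdomyolysis 3 or Cisplatin 4. By limma as described, 1 gene, Ndufa1, was lower at an unadjusted p under 0.05 (-0.46, adjusted p = 0.067). The counts were 39 of 71 respiratory genes, 10 of 15 ribosome genes and both import genes, and DESeq2 gave 22 of the 71. Mrpl12 differed by 1.80 (SE 0.17, adjusted p = 4.66e-08), Cox6b2 by 1.58 (SE 0.30, adjusted p = 0.000203) and Mrpl34 by 1.25 (SE 0.21, adjusted p = 4.51e-05). IRI and Cisplatin effects differed for 10 genes, 9 higher in IRI and 1 lower, against 13.5% and 16.8% of all genes tested. The lower gene was Cox6b2 at -2.56 (SE 0.30, adjusted p = 1.33e-06). Of the 9 higher genes, 8 were ribosome or import genes, led by Mrpl12 at 1.45 (adjusted p = 1.37e-06), Timm9 at 1.22 (adjusted p = 5.46e-05) and Mrpl34 at 0.79 (adjusted p = 0.00629), and the ninth was Uqcrq at 0.56 (adjusted p = 0.0393). Among the 8, the call of Mrps26, a small-subunit protein, was lost in 12 of 28 alternatives, among them DESeq2 and leaving out Control 1, 4, 5, 7 or 8, Cisplatin 1, 2 or 3, or IRI 2, 3 or 4, with adjusted p from 0.00132 to 0.0789. That of Mrpl50, a large-subunit protein, was lost without Cisplatin 2, Cisplatin 3 or IRI 3, with adjusted p up to 0.0627. The Uqcrq call was likewise lost in 12 of 28 alternatives, among them edgeR, DESeq2 and leaving out Control 1, 4, 7 or 8, Cisplatin 1, 2 or 3, or IRI 1, 2 or 3, with adjusted p from 0.00414 to 0.0937. Of 71 respiratory genes, 69 had no call in this comparison. With all 8 controls taken as 1 group the totals rose to 78 genes for IRI against Rhabdomyolysis and 22 for IRI against Cisplatin. Between the 2 control ranges themselves, 0 of the 88 genes passed adjusted p under 0.05 by limma and 8 had an unadjusted p under 0.05, beside 0 and 454 of all 5672 genes tested. The median difference was 0.12 for the 88 genes and 0.00066 for all genes.

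Promoters were inspected for letters of motifs known from nuclear genes of mitochondrial proteins. RefSeq windows from 250 bases before to 50 bases after a start site (GRCm38.p6) were found for 74 of the 88 genes, 78 windows in all. The motifs, read on both strands, were GCGCANGCG for NRF1, CCGGAAG for ETS factors, AANATGGCG for YY1, AAGGTCA for the estrogen-related receptors (ERR) and the E-box CACGTG, with N any base. NRF1 letters were in 28.2% of the windows of these genes, 9.19% of 5671 windows of genes in the table and 6.25% of all 32851 RefSeq windows. The other shares, in the same order, were 26.9%, 11.6% and 8.86% for ETS, 12.8%, 2.80% and 2.38% for YY1, 10.3%, 4.21% and 4.72% for ERR, and 10.3%, 9.36% and 7.15% for the E-box. YY1 letters were in 15.6% of 64 respiratory windows and in 0 of 14 ribosome and import windows. ETS letters were in 23.4% of the respiratory windows and 42.9% of the ribosome and import windows. These shares are a description without a test.

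**Figure D4:**
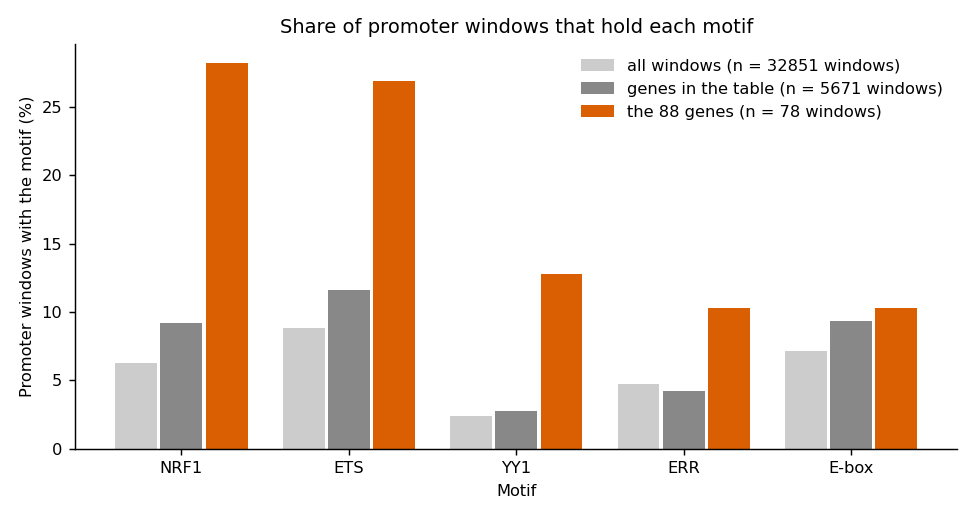
Share of 300-base promoter windows that hold each motif on either strand (vertical axis, percent), for all RefSeq windows, windows of genes in the table and the 78 windows of the 88 genes. The bars of the 88 genes stand highest for NRF1 at 28.2% and ETS at 26.9%, and nearest to the other bars for the E-box.

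The following sequences, 5′ to 3′, are the stretches upstream of the start site, clear of annotated exons, for 4 of the 5 genes with a rise and for 2 genes lower in all injuries, Atp5l and Atp5g3, that hold several of these motifs in such a stretch. Capitals mark motif letters.
Cox6b2 (GRCm38.p6, chr7:4753095-4753228, minus strand): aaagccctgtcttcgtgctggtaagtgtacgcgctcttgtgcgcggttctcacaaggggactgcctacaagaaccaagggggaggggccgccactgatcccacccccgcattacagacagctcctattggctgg
Mrpl12 (GRCm38.p6, chr11:120484387-120484612, plus strand): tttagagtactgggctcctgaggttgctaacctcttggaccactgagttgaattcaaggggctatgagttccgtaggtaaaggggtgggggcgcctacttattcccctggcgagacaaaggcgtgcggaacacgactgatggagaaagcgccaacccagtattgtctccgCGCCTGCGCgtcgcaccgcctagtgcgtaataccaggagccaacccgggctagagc
Mrpl33 (GRCm38.p6, chr5:31613701-31613938, plus strand): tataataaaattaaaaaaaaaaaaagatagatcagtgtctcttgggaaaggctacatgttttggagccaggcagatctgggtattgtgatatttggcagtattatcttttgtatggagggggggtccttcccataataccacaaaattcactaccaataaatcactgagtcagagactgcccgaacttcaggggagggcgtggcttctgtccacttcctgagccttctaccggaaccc
Mrps18b (GRCm38.p6, chr17:35916441-35916565, minus strand): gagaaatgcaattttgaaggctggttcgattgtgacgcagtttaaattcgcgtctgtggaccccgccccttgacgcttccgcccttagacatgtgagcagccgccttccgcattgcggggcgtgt
Atp5l (GRCm38.p6, chr9:44920752-44920992, minus strand): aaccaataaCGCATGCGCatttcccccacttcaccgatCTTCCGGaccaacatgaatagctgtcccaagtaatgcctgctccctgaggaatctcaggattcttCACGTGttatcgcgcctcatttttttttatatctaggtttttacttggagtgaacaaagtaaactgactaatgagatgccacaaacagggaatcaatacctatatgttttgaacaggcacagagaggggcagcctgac
Atp5g3 (GRCm38.p6, chr2:73911327-73911576, minus strand): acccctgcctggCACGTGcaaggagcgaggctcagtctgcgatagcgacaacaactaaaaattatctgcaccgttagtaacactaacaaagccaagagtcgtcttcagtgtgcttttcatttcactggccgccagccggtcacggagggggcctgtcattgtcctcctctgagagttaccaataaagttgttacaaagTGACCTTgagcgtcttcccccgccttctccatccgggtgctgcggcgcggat
The Mrpl12 stretch holds NRF1 letters that begin 80 bases before the start site. The Cox6b2, Mrpl33 and Mrps18b stretches hold none of the 5 motifs, which says only that these letters are absent there. In the full windows, part of which lies over annotated exons, Mrpl33 and Mrpl52 hold ETS letters and Mrps18b holds NRF1 and ETS letters. The full windows of Mrpl12 and Atp5l also hold ERR letters, and that of Atp5g3 also holds NRF1 letters. Atp5l, which encodes ATP synthase subunit g and fell by 0.69, 0.87 and 0.48 in IRI, Rhabdomyolysis and Cisplatin (the first and last lost under quantile normalization), holds NRF1, ETS and E-box letters beginning 241, 212 and 147 bases before the start. Atp5g3 holds E-box letters at 238 and ERR letters at 52 bases before a start site that lies within the gene's longer annotated span.

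Other nuclear genes of mitochondria were read from lists outside the symbol rule. These lists hold only genes of the table, and their background shares are those given above. All 7 chaperone, peptidase and import accessory genes in the table and all 9 genes of fission, fusion and mitophagy were lower in each injury. Of 17 genes of mitochondrial translation, 17, 16 and 16 were lower in IRI, Rhabdomyolysis and Cisplatin, the exception being the leucyl-tRNA synthetase gene Lars2 at 0.24 (SE 0.46) and -0.10 in the last 2. Lars2 ran from 353.5 to 3061 CPM among the controls, and its IRI libraries overlapped them. Of 12 further assembly factors 11, 12 and 12 were lower, and of 10 genes of electron carriers and coenzyme Q synthesis 9, 10 and 10. Of 2 ribosome assembly genes 1, 2 and 2 were lower. Within these lists, the tricarboxylic acid cycle list below aside, the largest falls were those of Adck3, a coenzyme Q synthesis gene, at -2.97 in Rhabdomyolysis (SE 0.15), and of Park2, which encodes parkin, at -2.87 in Cisplatin (SE 0.17). Of 21 genes of the tricarboxylic acid cycle and pyruvate dehydrogenase, 19 were lower and 2 higher in each injury. The largest fall was that of Pdk2, a kinase of pyruvate dehydrogenase, at -3.23 in Rhabdomyolysis. The higher genes were Pdk4, the kinase that inhibits pyruvate dehydrogenase, at 3.14, 1.81 and 2.65 (SE 0.39 each), and Pdp1, a phosphatase that activates it, at 0.61, 1.03 and 1.05 (SE 0.15 each).

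Regulators of mitochondrial biogenesis were called in both directions. Of 12 such genes in the table, 5 were lower and 2 higher in IRI, and 9 were lower and 3 higher in Rhabdomyolysis and in Cisplatin. The share lower in IRI was near the 40.1% of all genes tested, where 46.5% were lower in Rhabdomyolysis and 44.0% in Cisplatin. Ppargc1a, the coactivator PGC-1alpha, stood at 67.7, 90.5 and 119.7 CPM (lowest, median and highest control) and at 48.4 ± 8.44, 32.3 ± 7.89 and 39.6 ± 5.15 CPM (SD, n = 4) in IRI, Rhabdomyolysis and Cisplatin. All 12 injured libraries lay below the lowest control, and it fell by 0.94 (SE 0.18, adjusted p = 6.96e-05), 1.40 (adjusted p = 1.49e-07) and 1.09 (adjusted p = 7.08e-06). Esrra, the estrogen-related receptor alpha, fell by 0.61, 1.63 and 1.13 (SE 0.12 each), and Esrrb, its beta form, had -1.94, -1.61 and -1.02 (SE 0.22 each). Esrrg differed by -0.14 in IRI (SE 0.17, adjusted p = 0.453) and fell by 1.35 in Rhabdomyolysis and 0.57 in Cisplatin. Polrmt, the mitochondrial RNA polymerase, differed by -0.26 in IRI (adjusted p = 0.065) and fell by 1.01 and 0.91 in the others. In the other direction, Pprc1, a coactivator related to PGC-1alpha, rose from 8.65 to 13.3 CPM in controls to 27.9 ± 5.10, 42.6 ± 7.95 and 31.6 ± 2.95 CPM (SD, n = 4). Myc rose by 2.57, 4.03 and 3.37 (SE 0.19 each). Gabpb1, a GABP subunit, rose by 1.08 in Rhabdomyolysis and 0.76 in Cisplatin (SE 0.12) and had 0.15 in IRI (adjusted p = 0.24).

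**Figure D5:**
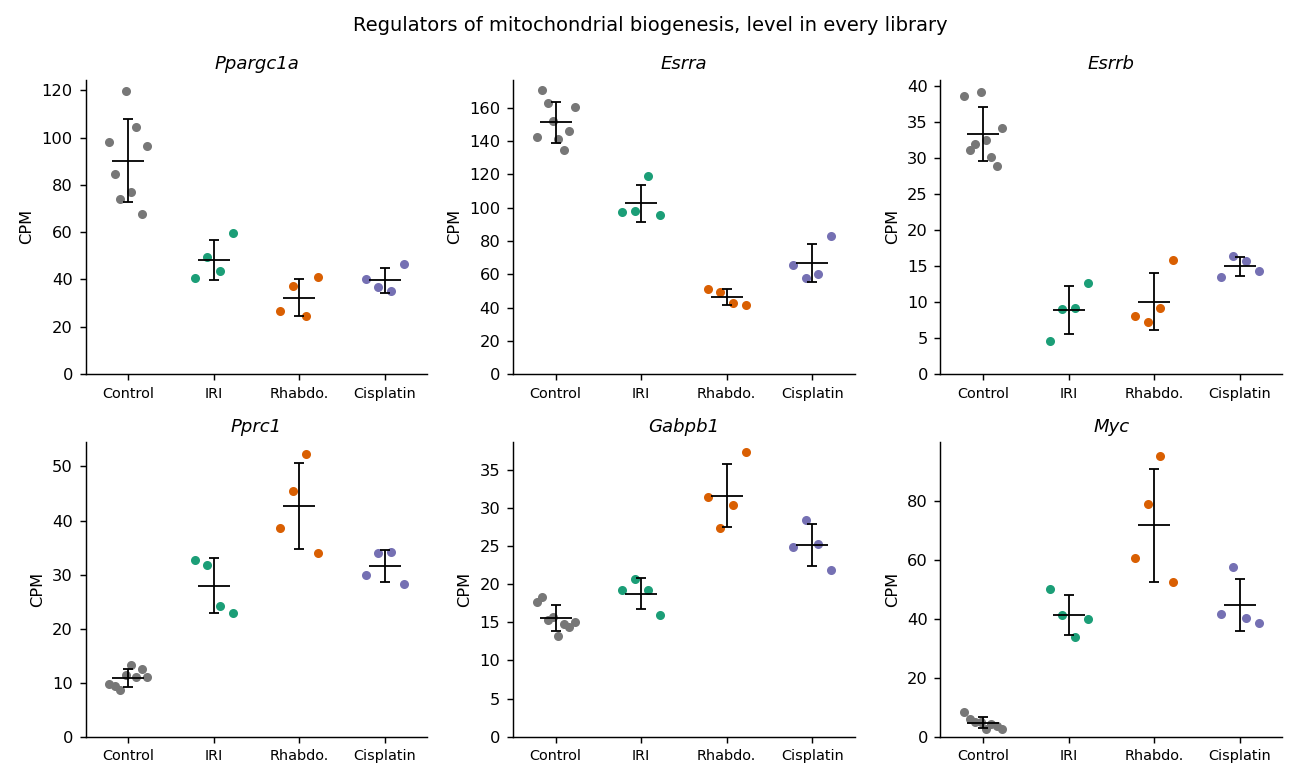
CPM in every library (vertical axes, starting at 0) of Ppargc1a, Esrra, Esrrb, Pprc1, Gabpb1 and Myc by group, with mean and SD. Ppargc1a, Esrra and Esrrb lie below the controls in every injury, whereas Pprc1 and Myc lie above them.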

How the data were processed

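Polyadenylated RNA from the kidney cortex of 20 mice was sequenced as 150-bp pairs from stranded libraries, per the labels. The submitters' processing notes name FastQC, Bowtie2 2.1.0, RSEM 1.2.15, edgeR and the build GRCm38 (mm10). The authors deposited 1 table of CPM values. The normalization behind their library size is not given in the sources used here. Whole reads were recovered in each library as value divided by its smallest step, and 100% of values came out whole within 0.1 read. The step of Cisplatin 2 was close to 0.1 CPM. Its largest distance from a whole read was 4.80e-05, beside 4.86e-05 in Rhabdomyolysis 1.

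The values were analysed as log2(CPM + 1), which understates changes of low genes, with limma 3.58.1 in R 4.3.3. A single model had 5 cells (the controls of each range and 3 injuries), with a mean-variance trend, for the 5672 genes that averaged 1 CPM or more over all libraries, leaving out 353. P-values were adjusted by Benjamini-Hochberg within each comparison, with a threshold of 0.05. The fit was tested on simulated data. Members, lists and tests were chosen with earlier results of these data known. Named genes were, per role class and injury, up to 2 rises and 2 falls without overlap, members of paralog sets, opposite calls, up to 3 largest differences each way between injuries, and up to 3 changes per other list; other genes named were chosen after their values were seen. Other settings tried were 0.1 as pseudocount, a minimum mean of 5 CPM or none, 75th percentile scaling, quantile normalization, edgeR 4.0.16 and DESeq2 1.42.0 on recovered reads, all 8 controls together, the replicate number as block, and leaving out each library. Genes were matched to RefSeq GRCm38.p6 by symbol, all 88, 3 of them by an older name. Exons were taken from GENCODE M21. Of the 88 genes, 27 share exon bases with another gene, 4 of them on the same strand. Ndufs1, Cox11, Cox15, Atp5a1, Ndufab1 and Atp5l are among those with an overlap on the opposite strand. The limit given for Timm9 holds for them too.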

Additional observations from a re-analysis of the deposited data

Results flagged for a closer look

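Among the 46 named genes, 11 of 184 groups of libraries held a value whose gap to its nearest neighbour was a large share of the group's whole range, where chance gives about 1 in 20, or 9.2. The gap ratio was 0.882 for Atp5g1 in IRI 3, 0.919 for Ndufab1 in IRI 3, 0.914 for Ndufv3 in IRI 4, 0.915 for Mrpl12 in IRI 1 and 0.876 for Cox5a in IRI 2. It was 0.844 for Cox5a and 0.839 for Mrps21 in Rhabdomyolysis 4. In Cisplatin 4 it was 0.875 for Cox5b, 0.868 for Cox6b1, 0.894 for Mrps21 and 0.843 for Ndufa6. Cisplatin 4 was the high library in each of these last 4 genes.

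Differences between injuries passed the limma test of the difference itself for 68 genes between Rhabdomyolysis and Cisplatin, 51 between the IRI and Rhabdomyolysis effects and 10 between the IRI and Cisplatin effects. On the log2(CPM + 1) scale, Rhabdomyolysis minus Cisplatin was 0.29 for Cox11, -4.13 for Cox6b2, -1.04 for Ndufab1, -1.23 for Ndufb4 and 0.48 for Timm9. The IRI effect minus the Rhabdomyolysis effect was 1.58 for Cox6b2, 1.80 for Mrpl12 and 1.25 for Mrpl34. The IRI effect minus the Cisplatin effect was -2.56 for Cox6b2, 1.45 for Mrpl12, 0.79 for Mrpl34 and 1.22 for Timm9.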

How the results depend on the processing

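Counts of the 88 genes called in each injury stayed within 1.5 times their main value under every alternative run. Leaving out 1 library at a time gave 72 to 81 genes in IRI, 87 to 88 in Rhabdomyolysis, 81 to 88 in Cisplatin, 55 to 71 between Rhabdomyolysis and Cisplatin, 44 to 58 for the IRI minus Rhabdomyolysis effect and 7 to 13 for the IRI minus Cisplatin effect. DESeq2 gave 51 genes between Rhabdomyolysis and Cisplatin and 34 genes for the IRI minus Rhabdomyolysis effect, 33 of them higher in place of 51. With all 8 controls as 1 group the last 2 became 78 and 22, and with quantile normalization the IRI minus Cisplatin count became 19. The difference between respiratory and ribosome and import genes became -0.19 in IRI, 0.14 in Rhabdomyolysis, where its sign turned, and 0.44 in Cisplatin under quantile normalization, and -0.43 in IRI against all 8 controls. Leaving out 1 library gave -0.53 to -0.45 in IRI, -0.28 to -0.15 in Rhabdomyolysis and 0.078 to 0.16 in Cisplatin. Under quantile normalization 9 single values changed sign. In IRI they were Atp5d at 0.12, Cox6a1 at 0.066, Ndufb8 at 0.033 and Sdhd at 0.26, and in Cisplatin Cox6b1 at 0.074, Cox7c at 0.030, Cox8a at 0.062, Ndufb8 at 0.17 and Ndufb9 at 0.058. Only that of Sdhd then passed the test. The cause was not tested. Quantile normalization moved the median of all genes by -0.054, -0.17 and -0.27 in IRI, Rhabdomyolysis and Cisplatin, and 75th percentile scaling by 0.14, 0.18 and 0.12. Relative to all genes, the 88 stood at -0.30, -0.91 and -0.45 under the first and -0.70, -1.45 and -0.95 under the second. A minimum mean of 5 CPM moved the median of all genes by -0.14, -0.69 and -0.34, through the genes it leaves out, with the 88 at -0.59, -0.82 and -0.64 relative to it.

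Groups share replicate numbers. With the replicate block, 77 genes were called in IRI and 63 between Rhabdomyolysis and Cisplatin. Over 24 pairs with the same number the correlation of deviations ran from -0.29 to 0.33 and 5 correlated best with their own number, so the numbers were not taken as pairing. Arms with 3 libraries share the spread of all cells. Depth limits only the lowest genes, such as Cox6b2 with 9 reads in 1 library.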

Other observations

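Chromosomal neighbours of the genes with unlike patterns were read in the same table, chosen after those patterns were seen. Slc25a10, the mitochondrial dicarboxylate carrier and the next RefSeq gene after Mrpl12, had 524.5 ± 81.3 CPM in controls (SD, n = 8), 504.9 ± 93.3 in IRI (n = 4), 57.7 ± 14.9 in Rhabdomyolysis (n = 4) and 299.0 ± 81.1 in Cisplatin (n = 4). Its order over the groups resembled that of Mrpl12, high in controls and IRI and lowest in Rhabdomyolysis. Gcgr, the next gene in the table on that side, had 26.4 ± 3.85 CPM in controls and 8.96 ± 0.77, 6.89 ± 0.15 and 7.52 ± 0.61 in IRI, Rhabdomyolysis and Cisplatin, and so was low in IRI as well. Kmt5c, a histone methyltransferase gene beside Cox6b2, was lowest in Rhabdomyolysis at 9.17 ± 0.74 CPM and had 11.7 ± 1.55 in Cisplatin, against 24.2 ± 3.76 in controls. Brsk1 and Il11, further neighbours of Cox6b2 in the table, had higher means in Cisplatin than in controls, 2.19 ± 0.57 against 1.19 ± 0.30 CPM and 3.21 ± 2.86 against 0.13 ± 0.20 CPM, and both were highest in Rhabdomyolysis, at 4.04 ± 0.60 and 16.9 ± 10.4 CPM, where Cox6b2 was lowest. No test was made of these neighbours.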
